A study of Mus musculus with 12 samples.

Results

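Cystatins are reversible protein inhibitors of papain-type cysteine proteases. The 6 family genes described here were chosen by symbol: the stefin A genes Stfa1, Stfa2 and Stfa3, the stefin B gene Cstb, the cystatin C gene Cst3 and the cystatin E/M gene Cst6. All 6 symbols were present among the 23234 in each table. Their expression was followed in mouse ear skin by RNA sequencing of 12 libraries in 4 groups of 3. The question, as far as the title and labels state it, was what an active vitamin D3 analogue does to gene expression in skin and what its receptor contributes. VDRcKO_Oxarol denotes ears of mice of the genotype K5-Cre;VDR f/f, taken 1 day after Oxarol. In these mice Cre recombinase is driven by the keratin 5 promoter, which is active in basal keratinocytes. Which skin cells, including those that arise from basal keratinocytes, had lost the receptor was not tested. WT_Oxarol denotes wild-type C57BL/6J ears 1 day after the same ointment, WT_PBS wild-type ears 1 day after phosphate-buffered saline, and WT_untreated wild-type ears with no stimulus. Oxarol is an ointment whose active ingredient is the vitamin D analogue maxacalcitol, of which the 100 mg put on an ear held 2.5 µg. All mice were 8 to 12 weeks old. No group of the K5-Cre;VDR f/f genotype without Oxarol was used here, so its difference from wild type at rest and its response to the ointment cannot be told apart. PBS is not the base of the ointment, so the active ingredient and the base cannot be told apart in WT_Oxarol against WT_PBS.

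Stefins are small single-chain inhibitors without a signal peptide that act inside cells, whereas Cst3 and Cst6 encode secreted cystatins. In the mouse the stefin A gene has multiplied into a cluster, where humans have a single gene, CSTA, whose product is a component of the cornified envelope of keratinocytes. Cystatin E/M inhibits cathepsin L and legumain in the upper epidermis, and mice that lack Cst6 have defective cornification.

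Stfa1, Stfa2 and Stfa3 lie together on chromosome 16, in the stretch of stefin A genes between Ccdc58 and Casr in the RefSeq gene order, while Cst6 is on chromosome 19, Cst3 on chromosome 2 and Cstb on chromosome 10. RefSeq also lists Stfa3 among the synonyms of Stfa1. Whether Stfa1 and Stfa3 in the deposited values name the same loci as in RefSeq was not tested. Because the 3 stefin A genes varied together over the libraries, the 250 bases before their starts are shown, from RefSeq on GRCm38.p6, 5′ to 3′ on the gene's strand, with the motif TTTAAA in capitals. The regions are chr16:36276898-36277147 on the plus strand for Stfa1, chr16:36408364-36408613 on the minus strand for Stfa2 and chr16:36455393-36455642 on the minus strand for Stfa3.
Stfa1: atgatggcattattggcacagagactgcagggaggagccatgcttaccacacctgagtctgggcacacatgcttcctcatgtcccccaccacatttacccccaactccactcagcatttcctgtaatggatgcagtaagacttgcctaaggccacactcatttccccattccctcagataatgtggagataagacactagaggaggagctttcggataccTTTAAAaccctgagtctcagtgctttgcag
Stfa2: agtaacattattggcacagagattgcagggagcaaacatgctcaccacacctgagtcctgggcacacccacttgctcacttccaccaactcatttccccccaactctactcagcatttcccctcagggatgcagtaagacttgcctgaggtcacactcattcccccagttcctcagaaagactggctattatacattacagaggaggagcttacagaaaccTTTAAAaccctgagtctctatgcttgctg
Stfa3: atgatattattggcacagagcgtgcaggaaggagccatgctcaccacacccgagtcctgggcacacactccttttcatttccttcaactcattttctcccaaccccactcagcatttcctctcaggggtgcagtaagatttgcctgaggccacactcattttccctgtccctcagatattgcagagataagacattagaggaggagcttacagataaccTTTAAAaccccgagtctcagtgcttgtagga
Aligned over these regions, Stfa1 was identical to Stfa2 at 82.6% and to Stfa3 at 85.8% of aligned positions, and Stfa2 to Stfa3 at 82.2%, against 47.7% between Stfa1 and Cst3, whose promoter is not from this cluster. Other genes of the cluster lay on both sides of these values. Stfa2l1 was identical to Stfa2 at 92.3% and Csta3 to Stfa1 at 89.1%, while Csta1 and Csta2 were identical to Stfa1 at 58.7% and 48.1%. TTTAAA, which reads the same on both strands, began 30 bases before the start of Stfa1, 29 before Stfa2 and 31 before Stfa3. It also began 33 bases before Stfa2l1, 77 before Csta3 and 230 before Csta1, and had no match in the Csta2 window. It occurred anywhere in 12.1% of 32851 RefSeq promoters of that length. Half-site letters of nuclear receptor elements were searched on both strands: AGGTCA, held by 14% of promoters, GGTTCA, held by 8.85%, and GGGTCA, held by 11.6%. AGGTCA had 1 match in the Stfa2 window, 103 bases before the start, and 1 in the Cst3 window, 114 bases before its start, and none of the 3 hexamers matched in the windows of Stfa1 and Stfa3. AGGTCA also had 1 match each in the windows of Csta1 and Csta2, 158 and 161 bases before the start. None of the 3 hexamers matched in those of Stfa2l1 and Csta3. TGANTCA, an AP-1 type motif held by 6.75% of promoters, and TATAAA, held by 12.4%, had no match in the windows of Stfa1, Stfa2, Stfa3 or Cst3. No match overlapped another, and the entries of Cst6 and Cstb were not in the promoter table.

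Values are FPKM, a fragment count scaled by transcript length and library size, as the authors deposited them, and a level can therefore be compared between genes. The size of the libraries was estimated from the value of 1 fragment in long genes. It ranged from 4750000 to 25200000 fragments in 11 libraries and was 117000000 in WT_PBS replicate 3. The 3 VDRcKO_Oxarol libraries had the lowest estimates, under every wild-type library, though only narrowly under WT_Oxarol replicate 3. Estimated size therefore runs with the VDRcKO_Oxarol label in each comparison of that group, and its part in the differences was not tested. In the libraries labelled VDRcKO_Oxarol, Vdr, the gene of the vitamin D receptor, was listed at 23.6, 25.0 and 18.0 FPKM, against 7.87, 6.68 and 7.05 FPKM in WT_Oxarol, which goes against the direction of the genotype label, although a value over the whole gene does not check a deletion of part of it. Cyp24a1, the vitamin D-degrading enzyme and a target of the receptor, followed the labels, with 0, 0.271 and 0.175 FPKM in VDRcKO_Oxarol and 66.2, 599 and 458 FPKM in WT_Oxarol. Library codes fall into 2 series, and all 3 VDRcKO_Oxarol libraries and replicate 3 of each wild-type group carry codes of the second. In each wild-type group 1 library stood apart by its summed level over the hair follicle markers: WT_Oxarol replicate 1 at 78.8 FPKM against 18.9 and 18.7 FPKM in the others, WT_PBS replicate 3 at 366.6 FPKM against 20.2 and 28.7 FPKM, and WT_untreated replicate 3 at 198 FPKM against 21.6 and 30.1 FPKM. Whether the 3 libraries of a group are 3 animals is not stated in the labels. A p-value here therefore reflects the spread among libraries, part or all of which may be technical.

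Stfa1 was low in untreated skin and abundant after the ointment. It was listed at 90.1, 48.9 and 59.1 FPKM in VDRcKO_Oxarol, 112, 187 and 119 FPKM in WT_Oxarol, 30.4, 39.4 and 10.6 FPKM in WT_PBS, and 2.72, 0.924 and 9.22 FPKM in WT_untreated. The order of the groups was WT_Oxarol, VDRcKO_Oxarol, WT_PBS and WT_untreated, and no 2 of them overlapped in any of the 6 pairings. The lowest WT_PBS value, 10.6 FPKM in replicate 3, lay just above the highest WT_untreated value, also in replicate 3.

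Stfa3 ranked the groups differently. It was listed at 56.9, 32.0 and 31.7 FPKM in VDRcKO_Oxarol, 20.6, 21.7 and 12.4 FPKM in WT_Oxarol, 4.16, 5.10 and 1.87 FPKM in WT_PBS, and 2.75, 0.30 and 1.70 FPKM in WT_untreated. VDRcKO_Oxarol was highest, WT_Oxarol lay between it and both groups without ointment, and those, WT_PBS and WT_untreated, overlapped. Stfa3 was lower than Stfa1 in every library that received PBS or ointment, and replicate 1 was the highest of VDRcKO_Oxarol for both genes.

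Stfa2 was the faintest of the stefins. It was listed at 2.70, 3.42 and 1.85 FPKM in VDRcKO_Oxarol, 8.25, 3.52 and 1.68 FPKM in WT_Oxarol, 0.52, 2.1 and 0.436 FPKM in WT_PBS, and at 0.87, 0 and 0 FPKM in WT_untreated. Both ointment groups lay above WT_untreated with no overlap, and every other pairing of groups overlapped. It reached 1 FPKM in 7 of the 12 libraries, and a single fragment was worth 0.0181 to 0.447 FPKM of Stfa2 depending on the library, so several of its values rest on a few fragments.

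By group mean the secreted cystatin gene Cst6 was highest in VDRcKO_Oxarol, like Stfa3, but unlike Stfa1, Stfa2 and Stfa3 it was lowest in WT_Oxarol. It was listed at 445, 398 and 325 FPKM in VDRcKO_Oxarol, 175, 155 and 174 FPKM in WT_Oxarol, 189.6, 195 and 199 FPKM in WT_PBS, and 305, 243 and 168 FPKM in WT_untreated. The VDRcKO_Oxarol libraries stood above all wild-type libraries. WT_Oxarol lay under WT_PBS in every library by a narrow margin, and WT_untreated spread across both.

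Cst3, the broadly expressed secreted cystatin C, was the most abundant of the 6 genes. It was listed at 1387, 1279 and 1248 FPKM in VDRcKO_Oxarol, 1150.5, 1265 and 1483 FPKM in WT_Oxarol, 1249, 1202 and 1373 FPKM in WT_PBS, and 2077, 1481 and 1210.2 FPKM in WT_untreated. Cstb, the intracellular stefin B, was listed at 416, 431 and 391 FPKM in VDRcKO_Oxarol, 365, 403 and 415 FPKM in WT_Oxarol, 389.7, 440.2 and 364 FPKM in WT_PBS, and 456, 352 and 260.5 FPKM in WT_untreated. For both genes all pairings of groups overlapped, and the 3 untreated libraries were spread the widest, with replicate 1 the highest of all 12.

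**Figure D1:**
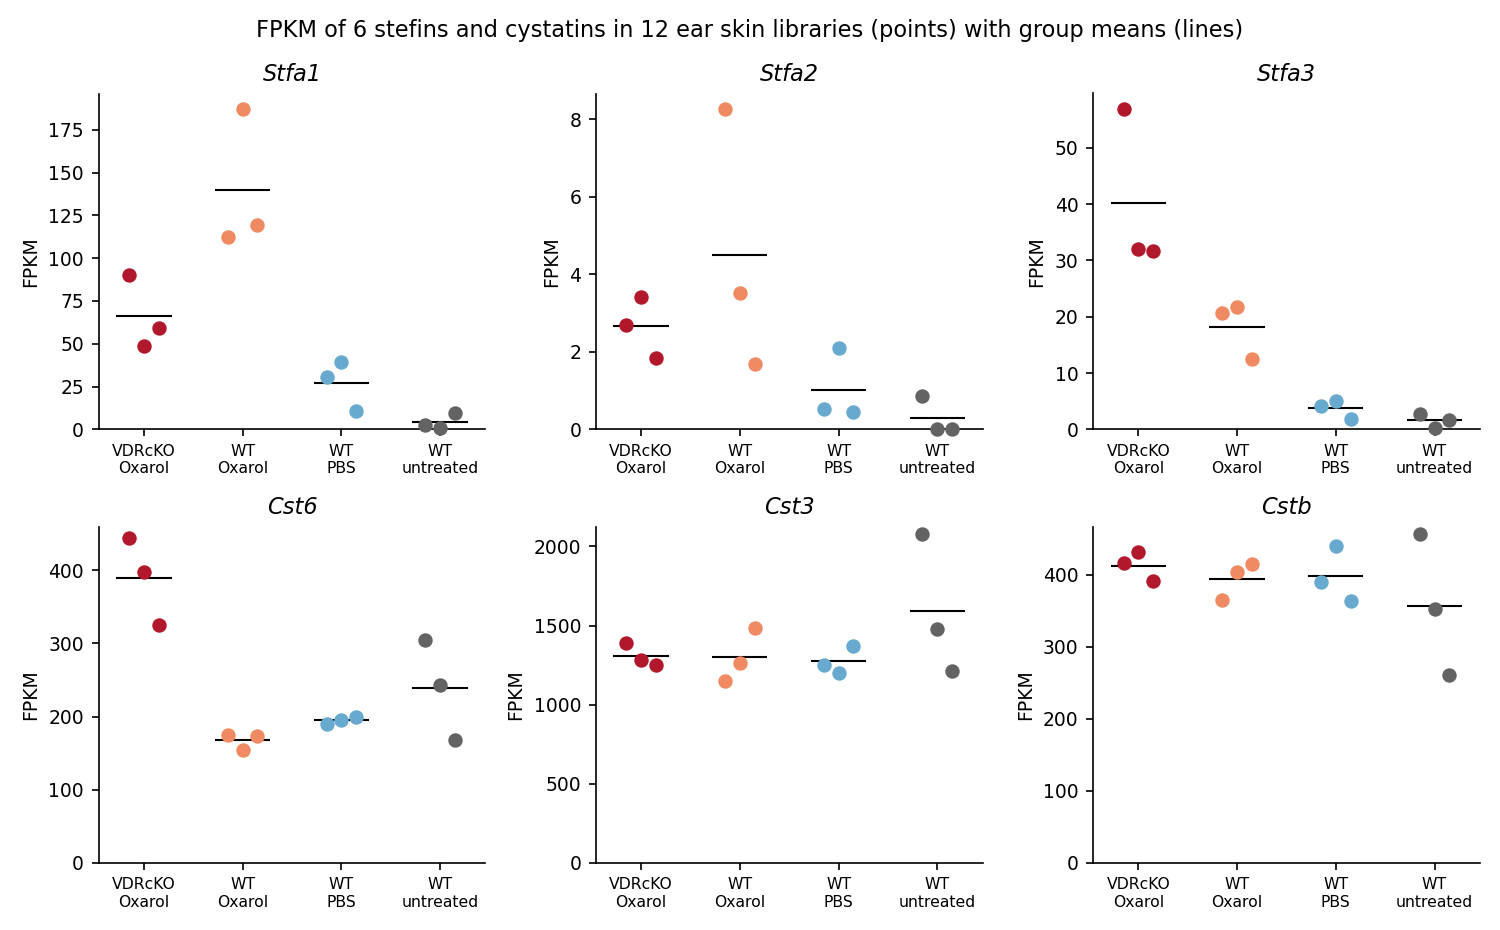
Level of each of the 6 genes in FPKM (vertical axis, linear, from 0) in the 4 groups of ear skin libraries (horizontal axis). Points are the 3 libraries of a group and lines are group means. Stfa1 was highest in WT_Oxarol, at 112 to 187 FPKM, while Stfa3 and Cst6 were highest in VDRcKO_Oxarol, and all groups overlapped for Cst3 and Cstb.

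The first comparison asked what the ointment did in wild-type skin, set against PBS. None of the 6 genes passed the test, and the stefin A genes showed the widest differences. Stfa1 averaged 139.7 ± 41.2 FPKM in WT_Oxarol and 26.8 ± 14.7 FPKM in WT_PBS (SD, n = 3 each), and Stfa3 averaged 18.2 ± 5.06 FPKM in WT_Oxarol and 3.71 ± 1.66 FPKM in WT_PBS. On the log2(FPKM + 1) scale, which understates the change of low genes, Stfa1 differed by 2.48 ± 0.59 (SE; limma, adjusted p = 0.158), with a 95% interval of 1.18 to 3.78. Stfa3 differed by 2.06 ± 0.41 (limma, adjusted p = 0.0859), with an interval of 1.15 to 2.98. Stfa2 differed by 1.35 ± 0.45 (limma, adjusted p = 0.396). Calls used limma with Benjamini-Hochberg adjustment over 14059 genes at 0.05, by which 0.306% of genes were called in this comparison (43 genes, with 1047 at an unadjusted p under 0.05). Of the 6 genes, 3 did not overlap between WT_Oxarol and WT_PBS, Stfa1 and Stfa3 higher and Cst6 lower, which held for 15.9% of all genes tested. Cst6 differed by -0.22 ± 0.19 (limma, adjusted p = 0.946), and the intervals of Cst3 and Cstb ran from -0.38 to 0.42 and from -0.39 to 0.36. The median over all genes was 0.01.

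Set against untreated skin, the same WT_Oxarol libraries carried more Stfa1 and Stfa3. Stfa1 rose by 5.03 ± 0.59 (limma, adjusted p = 0.00432), a ratio of group means of 32.6, and averaged 139.7 FPKM in WT_Oxarol against 4.29 ± 4.37 FPKM in WT_untreated. Stfa3 rose by 2.99 ± 0.41 (limma, adjusted p = 0.0108), to 18.2 FPKM in WT_Oxarol against 1.58 ± 1.23 FPKM in WT_untreated. These were 2 of 6 genes, where 1.31% of all genes were called in either direction and 0.989% were called higher. Stfa2 differed by 1.97 ± 0.45 (limma, adjusted p = 0.0645) and Cst6 by -0.47 ± 0.19 (limma, adjusted p = 0.232). The groups did not overlap for Stfa1, Stfa2 and Stfa3, as for 18.8% of all genes. In a fit of only these 2 groups neither call held (limma, adjusted p = 0.0651 for Stfa1 and 0.0936 for Stfa3). The Stfa3 call was also lost without WT_Oxarol replicate 2 (adjusted p = 0.0604) and in the first library series alone (adjusted p = 0.166), where Stfa1 kept its call at 5.77 (adjusted p = 0.00649).

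PBS itself was set against no treatment, and 0 of the 6 genes were called by limma, as 1 of all 14059 genes was (0.00711%; 1312 genes had an unadjusted p under 0.05). Stfa1 stood at 26.8 FPKM in WT_PBS and 4.29 FPKM in WT_untreated, a difference of 2.55 ± 0.59 (limma, unadjusted p = 0.00129, adjusted p = 0.43). It was the 1 gene of the 6 whose libraries did not overlap, as 13% of all genes did not. Stfa3 differed by 0.93 ± 0.41 (limma, adjusted p = 0.53) and Stfa2 by 0.62 ± 0.45 (limma, adjusted p = 0.681). WT_Oxarol against WT_PBS and against WT_untreated share the WT_Oxarol libraries, and WT_PBS enters both this comparison and the one of WT_Oxarol with WT_PBS, so their values are not independent.

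In ointment-treated skin Cst6 was higher in VDRcKO_Oxarol than in WT_Oxarol, and the other 5 genes gave no call. Cst6 rose to 389 ± 60.3 FPKM in VDRcKO_Oxarol, against 168 ± 11.3 FPKM in WT_Oxarol (SD, n = 3 each), a ratio of group means of 2.32. The log2 difference was 1.20 ± 0.19 (limma, adjusted p = 0.00765), with an interval of 0.79 to 1.61. It was the only call among the 6 genes in this comparison, where 13.1% of all genes were called in either direction and 8.71% were called higher. Stfa1 averaged 66.0 ± 21.5 FPKM in VDRcKO_Oxarol and 139.7 ± 41.2 FPKM in WT_Oxarol, a difference of -1.08 ± 0.59 (limma, adjusted p = 0.23). Stfa3 lay on the other side, with 40.2 ± 14.4 FPKM in VDRcKO_Oxarol and 18.2 ± 5.06 FPKM in WT_Oxarol, a difference of 1.08 ± 0.41 (limma, adjusted p = 0.102). Stfa1, Stfa3 and Cst6 did not overlap between the groups, as 42.2% of all genes did not. Fitted on these 2 groups alone, Stfa1 was called lower (limma, adjusted p = 0.0429) and Stfa3 higher (limma, adjusted p = 0.0487) in VDRcKO_Oxarol. For each gene this was 1 of 20 alternative settings run, and the other 19 gave no call. The share of all genes called in that fit is not given here.

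Cst3 and Cstb gave no call between the genotypes. Cst3 differed by 0.01 ± 0.18 (limma, adjusted p = 0.973; interval -0.39 to 0.41; -0.07 under median-of-ratios scaling). Cstb differed by 0.07 ± 0.17 (limma, adjusted p = 0.818; interval -0.31 to 0.44; -0.02 under median-of-ratios scaling). Stfa2 differed by -0.42 ± 0.45 (limma, adjusted p = 0.542), and by 0.09 with the library code series in the model. The median over all genes was 0.08.

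The VDRcKO_Oxarol libraries all belong to the second code series, which holds a single library of each wild-type group. Against WT_Oxarol replicate 3 alone, from the same series, the VDRcKO_Oxarol mean differed by 1.15 for Cst6, 1.57 for Stfa3 and -0.89 for Stfa1, values with no test. With the series as a term Cst6 kept its call at 1.33 (limma, adjusted p = 0.0279).

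Against the groups without ointment, VDRcKO_Oxarol was higher in Stfa3 and Cst6. Against WT_PBS, Stfa3 rose by 3.15 ± 0.41 (limma, adjusted p = 0.00259) and Cst6 by 0.98 ± 0.19 (limma, adjusted p = 0.0097). These were 2 of 6 genes where 16.3% of all genes were called in either direction and 10.8% higher, and Stfa1, Stfa3 and Cst6 did not overlap, as 47.4% of genes did not. Stfa1 differed by 1.41 ± 0.59 (limma, adjusted p = 0.12). Against WT_untreated 4 of the 6 genes rose, where 19% of all genes were called in either direction and 12.8% higher. They were Stfa3 by 4.07 ± 0.41 (limma, adjusted p = 0.00116), Stfa1 by 3.96 ± 0.59 (limma, adjusted p = 0.00375), Stfa2 by 1.55 ± 0.45 (limma, adjusted p = 0.0377) and Cst6 by 0.73 ± 0.19 (limma, adjusted p = 0.0241). The same 4 did not overlap between these groups, as 37.9% of genes did not. The Stfa2 call was lost with no filter, with quantile normalization and without any 1 of 7 libraries (adjusted p = 0.0512 to 0.109 over these 7), and the Cst6 call against WT_untreated without VDRcKO_Oxarol replicate 1 or 2 (adjusted p = 0.0807 and 0.0717) and in a fit of these 2 groups (adjusted p = 0.117). All 3 comparisons use the same VDRcKO_Oxarol libraries.

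**Figure D2:**
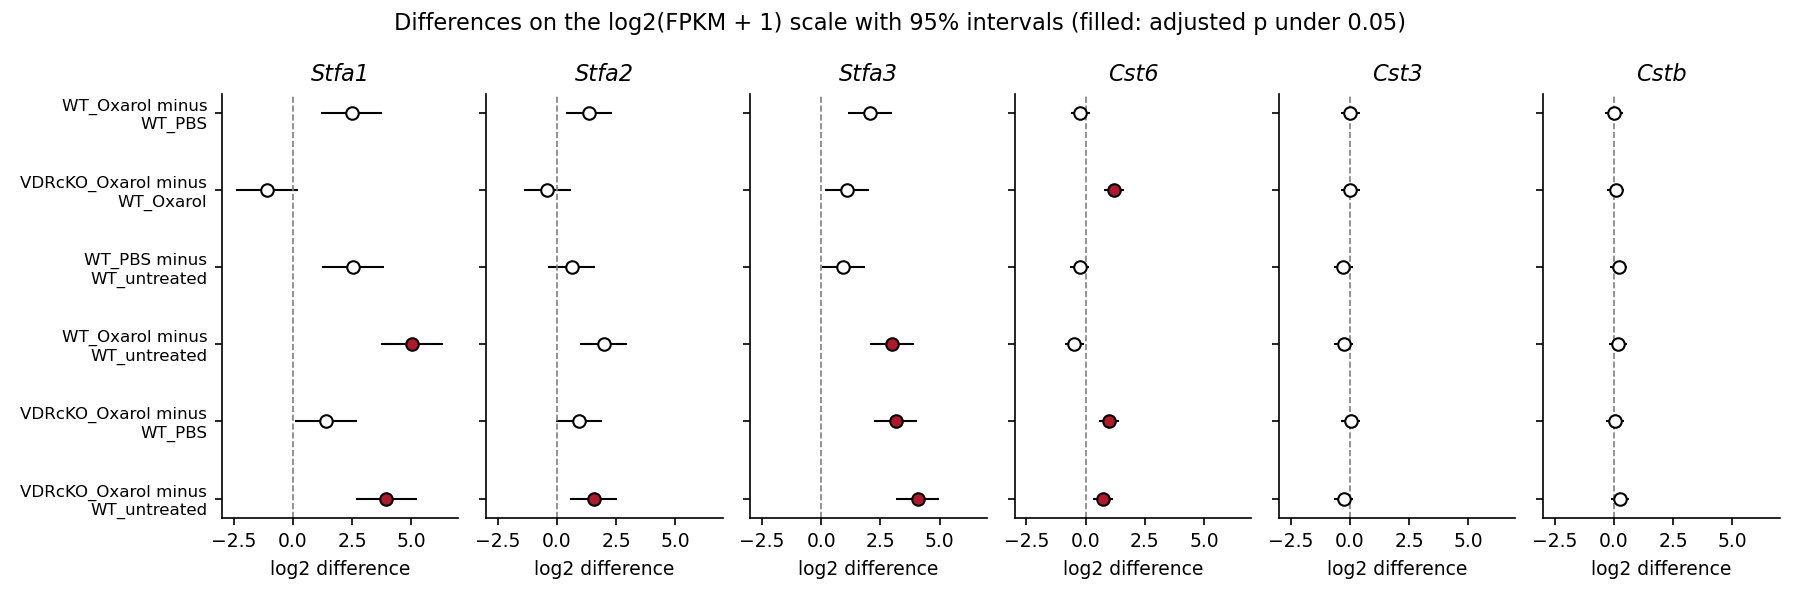
Difference of each gene on the log2(FPKM + 1) scale (horizontal axis) in the 6 comparisons (rows, the first group named minus the second), with 95% intervals from limma. Filled points passed an adjusted p of 0.05 over all genes tested. Cst6 was the 1 gene called between VDRcKO_Oxarol and WT_Oxarol, at 1.20, and the intervals of Cst3 and Cstb included 0 in every comparison.

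Stfa1 and Stfa3, which in RefSeq lie in the same cluster with other genes between them, kept unequal proportions in the 2 ointment groups. Because Stfa3 is also a RefSeq synonym of Stfa1, the loci behind these 2 deposited symbols are not certain. Stfa3 amounted to 63.1%, 65.5% and 53.7% of the Stfa1 level in VDRcKO_Oxarol and to 18.3%, 11.6% and 10.4% in WT_Oxarol. It amounted to 13.7%, 12.9% and 17.7% in WT_PBS, and to 101%, 32.5% and 18.4% in WT_untreated, where both genes were low. The VDRcKO_Oxarol libraries stood above WT_Oxarol and WT_PBS, which overlapped with each other. WT_untreated also lay above both, narrowly in replicate 3, and overlapped with VDRcKO_Oxarol. The mean log2 ratio differed by 2.22 between VDRcKO_Oxarol and WT_Oxarol and by 2.05 between VDRcKO_Oxarol and WT_PBS (exact two-sided permutation tests over 3 and 3 libraries, p = 0.1, the smallest they can give). It differed by -1.59 between WT_Oxarol and WT_untreated and by -1.42 between WT_PBS and WT_untreated (the same exact test, p = 0.1 for both), by 0.63 between VDRcKO_Oxarol and WT_untreated (exact p = 0.4), and by -0.17 between WT_Oxarol and WT_PBS (exact p = 0.6). The ratio was chosen after the levels were seen.

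The stefin A rows share sequence, which bears on how fragments could be divided among them. In the GENCODE transcripts, 22.5% of the 50-base words of Stfa1 also occur in another stefin A gene, 19.4% in BC100530 and 9.01% in BC117090, both stefin A family genes of the cluster. For Stfa2 the share was 14.7%, all with Stfa2l1. Stfa3 shared none, and neither did Cst6, Cst3 and Cstb, so fragments of that length from Stfa3 or Cst6 have no second place among these transcripts. Only exact words among the genes compared were counted, so these shares set no upper limit on the uncertainty of the Stfa1, Stfa2 and Stfa3 values. How the authors' counting treated shared reads is not given in the sources used here.

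Summed over the 9 stefin A rows of the tables, the level was 275 ± 70.7 FPKM in VDRcKO_Oxarol, 449.7 ± 122 FPKM in WT_Oxarol, 104 ± 57.1 FPKM in WT_PBS and 23.4 ± 22.8 FPKM in WT_untreated (SD, n = 3 each). BC100530 made up the largest part in every library, 46.8% to 50.7% of the sum in VDRcKO_Oxarol and 47.7% to 52.8% in WT_Oxarol. The share of Stfa3 was 13.1% to 16.0% in VDRcKO_Oxarol and 3.68% to 4.76% in WT_Oxarol. As 1 row in the fit, the sum rose in WT_Oxarol over WT_untreated by 4.64 ± 0.64 (limma, adjusted p = 0.0111) and in VDRcKO_Oxarol over WT_untreated by 3.93 ± 0.64 (limma, adjusted p = 0.00537). It was not called in WT_Oxarol against WT_PBS, at 2.26 ± 0.64 (limma, adjusted p = 0.27), or in VDRcKO_Oxarol against WT_Oxarol, at -0.70 ± 0.64 (limma, adjusted p = 0.473).

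**Figure D3:**
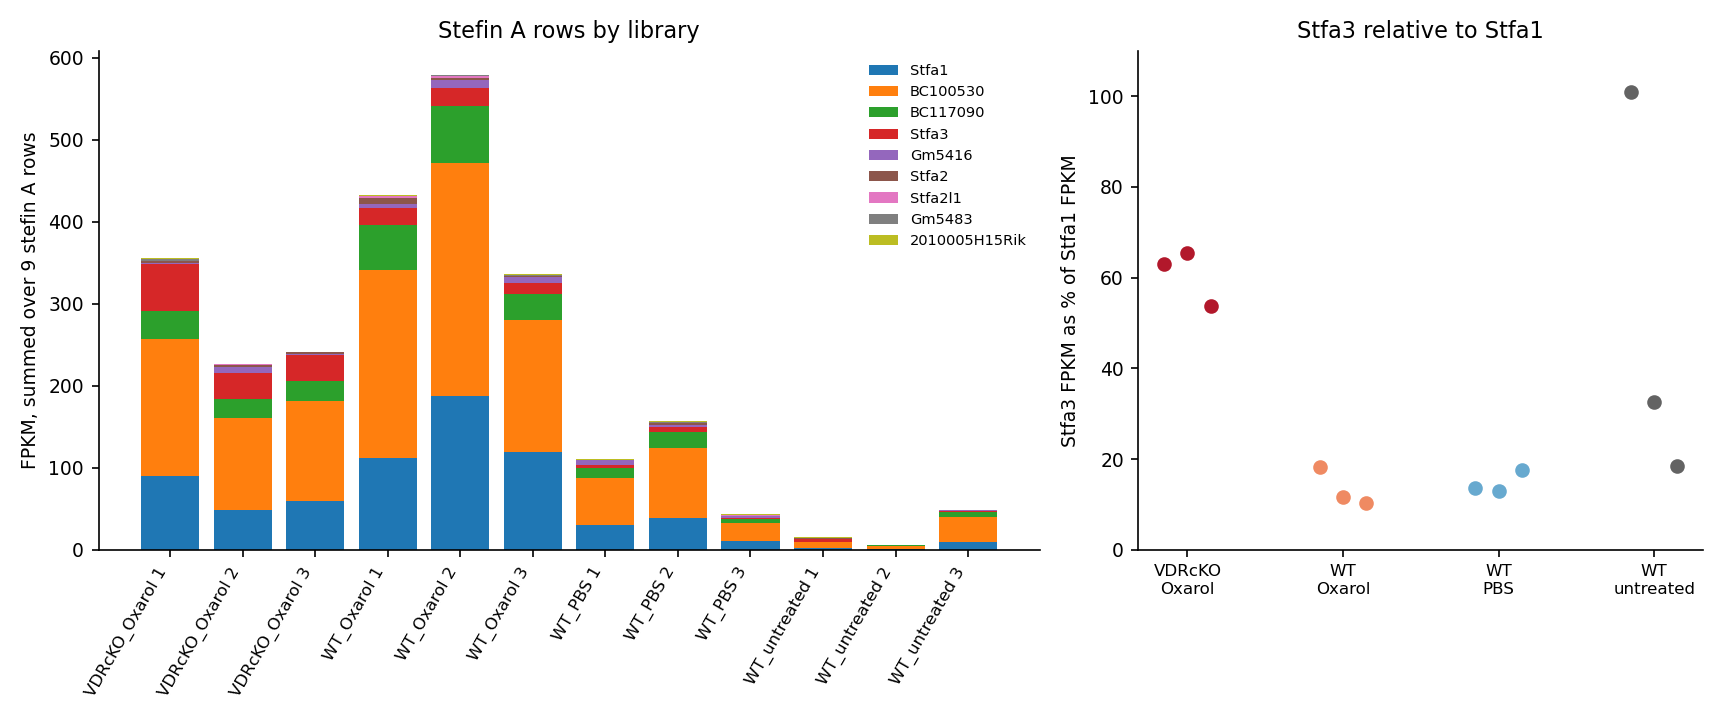
Left, summed FPKM of the 9 stefin A rows in each library, stacked by gene (bars start at 0). Right, Stfa3 as a percentage of Stfa1 in each library (points) by group. BC100530 and Stfa1 filled most of each bar, and the 3 VDRcKO_Oxarol libraries had Stfa3 at 53.7% to 65.5% of Stfa1, against 10.4% to 18.3% in WT_Oxarol.

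Of 26 other family genes listed, 20 had a row and 8 passed the filter of at least 1 FPKM in at least 3 libraries. Among the 8, 0 were called in WT_Oxarol against WT_PBS, where only 0.306% of all genes were. All 8 differences were above 0, with a median of 0.44 against 0.01 over all genes. In VDRcKO_Oxarol against WT_Oxarol 1 of 8 rose, a share near the 8.71% called higher over all genes. It was Fetub, which encodes fetuin-B, a plasma protein of the cystatin superfamily, with 6.08, 5.14 and 4.51 FPKM in VDRcKO_Oxarol and 1.36, 0.883 and 1.23 FPKM in WT_Oxarol, a difference of 1.53 ± 0.18 (limma, adjusted p = 0.00303). The 3 VDRcKO_Oxarol libraries lay above all wild-type libraries for this gene. In WT_Oxarol against WT_untreated 3 of 8 rose, all in the stefin A cluster, beside 0.989% of all genes. BC100530 rose by 4.36 ± 0.63 (limma, adjusted p = 0.0125), with 229, 285 and 161 FPKM in WT_Oxarol and 6.88, 3.95 and 30.3 FPKM in WT_untreated. BC117090 rose by 4.32 ± 0.63 (limma, adjusted p = 0.0125), and Gm5416, which is Csta3 in RefSeq, by 2.43 ± 0.48 (limma, adjusted p = 0.0402). Csta, a synonym of Csta1 in RefSeq, varied less among the wild-type groups than these 3 genes of the cluster, and was highest there in WT_Oxarol. It was listed at 25.2, 23.6 and 25.2 FPKM in VDRcKO_Oxarol, 16.1, 21.4 and 16.5 FPKM in WT_Oxarol, 12.6, 14.4 and 14.0 FPKM in WT_PBS, and 17.3, 12.5 and 10.4 FPKM in WT_untreated. Csta was called higher in VDRcKO_Oxarol against WT_PBS, by 0.81 ± 0.16 (limma, adjusted p = 0.0117), and not against WT_Oxarol, by 0.45 ± 0.16 (limma, adjusted p = 0.0877). In VDRcKO_Oxarol against WT_PBS 3 of 8 rose, Fetub, Csta and the kininogen gene Kng2, beside 10.8% of all genes, and against WT_untreated 5 of 8, BC100530, BC117090, Csta, Fetub and Kng2, beside 12.8%. None of the 8 fell in any of the 6 comparisons. Of the 3 calls in WT_Oxarol against WT_untreated 0 held without WT_Oxarol replicate 2 or in a fit of these 2 groups, Csta lost its call against WT_PBS without WT_PBS replicate 1 (adjusted p = 0.0548), and the Kng2 and Gm5416 calls were lost on leaving out any of several libraries, while the Fetub call against WT_Oxarol held under every alternative that kept the gene.

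The proteases that cystatins bind were followed as a list of 12, papain-type cathepsins and legumain, of which 11 had a row and all 11 were tested. In WT_Oxarol against WT_PBS 0 of 11 were called, where only 0.306% of all genes were. In VDRcKO_Oxarol against WT_Oxarol 7 of 11 rose and 0 fell, where 8.71% of all genes were called higher, and the median difference was 0.57 against 0.08 over all genes. Ctsk, a collagen-degrading cathepsin, had 115, 134 and 141 FPKM in VDRcKO_Oxarol and 69.1, 47.7 and 66.1 FPKM in WT_Oxarol, a difference of 1.09 ± 0.15 (limma, adjusted p = 0.00533). Ctsl, which encodes cathepsin L, a target of cystatin E/M, had 133, 121 and 112 FPKM in VDRcKO_Oxarol and 71.7, 59.5 and 67.6 FPKM in WT_Oxarol, a difference of 0.87 ± 0.13 (limma, adjusted p = 0.00758). For both genes the VDRcKO_Oxarol libraries stood above all wild-type libraries. Ctsw, known from cytotoxic lymphocytes, rose by 0.95 ± 0.18 (limma, adjusted p = 0.0134), Ctsc, which activates granule serine proteases, by 0.57 ± 0.11 (limma, adjusted p = 0.0148) and Ctsz, a carboxypeptidase, by 0.48 ± 0.12 (limma, adjusted p = 0.0277). Of these 7 calls, 2 held with the library code series in the model and 2 without WT_Oxarol replicate 2, Ctsk and Ctsl both times, and 4 held without VDRcKO_Oxarol replicate 1 or without WT_Oxarol replicate 1. Lgmn, the legumain gene, differed by 0.30 ± 0.12 (limma, adjusted p = 0.115). Against WT_PBS 9 of 11 rose in VDRcKO_Oxarol, beside 10.8% of all genes, and against WT_untreated 8 of 11, beside 12.8%, with none lower. In the fit of VDRcKO_Oxarol and WT_untreated alone 3 of those 8 held, and against WT_PBS 6 of 9 held without VDRcKO_Oxarol replicate 1 or without WT_PBS replicate 1.

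**Figure D4:**
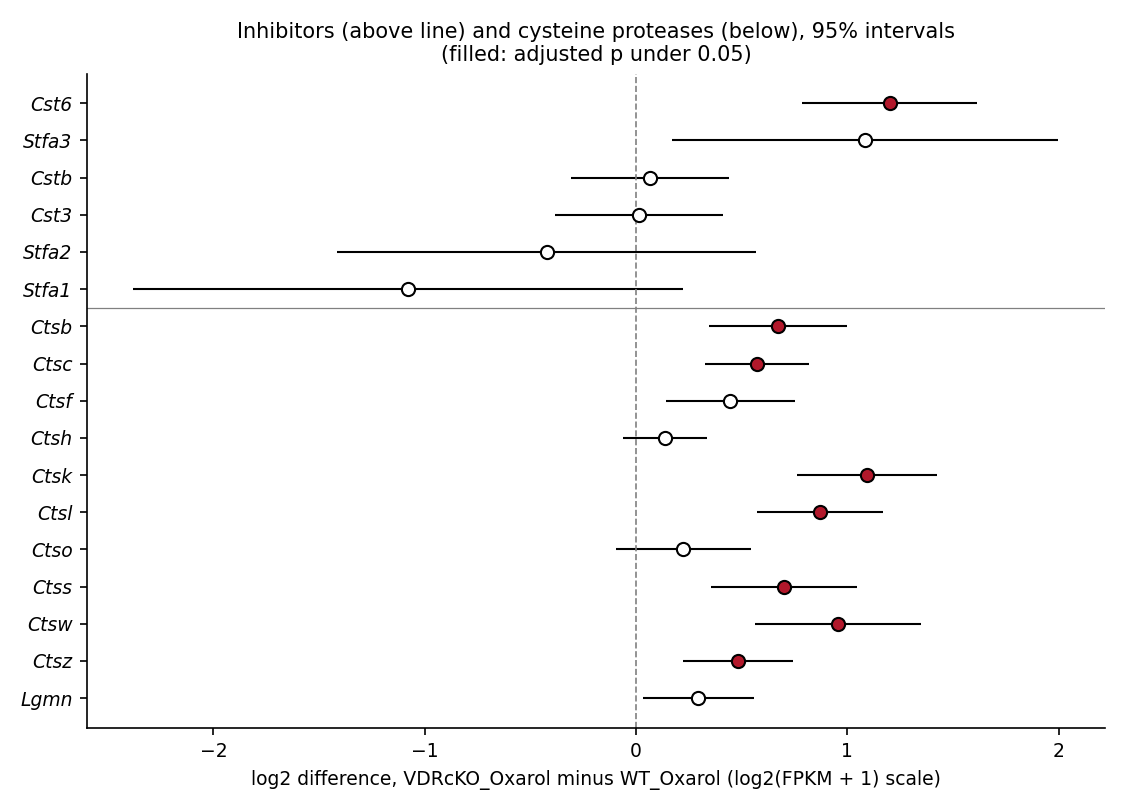
Log2 difference between VDRcKO_Oxarol and WT_Oxarol (horizontal axis, log2(FPKM + 1) scale) with 95% intervals for the 6 inhibitors, above the line, and 11 cysteine proteases, below it. Filled points passed an adjusted p of 0.05. Of the inhibitors Cst6 was called, at 1.20, and 7 of the 11 proteases were called higher, Ctsk the most at 1.09.

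Cornification genes among which cystatin E/M acts were listed as 10, and 9 had a row and were tested. In VDRcKO_Oxarol against WT_Oxarol 3 of 9 rose, beside 8.71% of all genes. Casp14, a protease of cornifying keratinocytes, stood at 156, 167 and 148 FPKM in VDRcKO_Oxarol and 41.6, 40.4 and 30.0 FPKM in WT_Oxarol, a difference of 2.06 ± 0.18 (limma, adjusted p = 0.000689). Ivl, which encodes the envelope protein involucrin, rose by 1.03 ± 0.19 (limma, adjusted p = 0.0128), and Ctsd, an aspartic protease, by 0.58 ± 0.15 (limma, adjusted p = 0.0333). Cdsn, which encodes the adhesion protein corneodesmosin, averaged 228 FPKM in VDRcKO_Oxarol and 236 FPKM in WT_Oxarol. In WT_Oxarol against WT_PBS 0 of 9 were called, where only 0.306% of all genes were. The Ctsd call was lost with the series term (adjusted p = 0.149) and on leaving out any of 6 libraries, and that of Ivl without WT_Oxarol replicate 2 (adjusted p = 0.0506), whereas that of Casp14 held under all alternatives run.

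Markers of other skin cells moved with some of these groups. In bulk tissue fewer cells of a type and less RNA per cell cannot be told apart. Beside the stefins, which neutrophils are known to express in the mouse, 16 of 17 neutrophil markers had a row. Their summed level was 100.1 to 156 FPKM in VDRcKO_Oxarol, 93.7 to 106 FPKM in WT_Oxarol, 61.9 to 117 FPKM in WT_PBS and 23.9 to 34.2 FPKM in WT_untreated. Of the 10 that were tested, 0 were called in WT_Oxarol against WT_PBS, where only 0.306% of all genes were. In VDRcKO_Oxarol against WT_Oxarol 1 was called higher, a share near the 8.71% of all genes. In WT_Oxarol against WT_untreated 2 were called higher, beside 0.989% of all genes, and in VDRcKO_Oxarol against WT_untreated 5, beside 12.8%. None was lower in these comparisons. The granule genes Mpo, Elane, Ngp and Ltf were under 0.5 FPKM in every library, with Elane and Ngp listed at 0 in all 3 VDRcKO_Oxarol libraries. The granule gene Camp reached 3.01 FPKM. Retnlg averaged 3.42 FPKM in VDRcKO_Oxarol, 2.48 FPKM in WT_Oxarol, 2.79 FPKM in WT_PBS and 0.754 FPKM in WT_untreated, and Csf3r, a receptor of granulocyte colony-stimulating factor, averaged 3.37, 2.73, 2.35 and 1.79 FPKM in the same order of groups. Other markers of the list ranked the groups differently. In that order of groups Cxcr2 averaged 10.5, 12.4, 10.3 and 9.26 FPKM, highest in WT_Oxarol. Ctsg averaged 0.920, 1.64, 1.99 and 1.71 FPKM, lowest in VDRcKO_Oxarol. Lcn2 averaged 3.56, 2.36, 3.64 and 1.94 FPKM, and Mmp9 3.40, 1.82, 2.72 and 2.23 FPKM. S100a8, a calgranulin gene that stressed keratinocytes also express, stood at 105, 73.5 and 53.7 FPKM in VDRcKO_Oxarol, 49.3, 61.6 and 56.1 FPKM in WT_Oxarol, 58.7, 67.6 and 26.8 FPKM in WT_PBS, and 6.74, 1.66 and 9.85 FPKM in WT_untreated. WT_untreated lay under every other group, and VDRcKO_Oxarol, WT_Oxarol and WT_PBS overlapped. The 4 keratins of activated epidermis summed to 431 to 721 FPKM in VDRcKO_Oxarol, 362 to 488 FPKM in WT_Oxarol, 295 to 467 FPKM in WT_PBS and 255 to 278 FPKM in WT_untreated. Of these 4, 3 were called higher in WT_Oxarol against WT_untreated, beside 0.989% of all genes, and 0 against WT_PBS, beside 0.306%. In VDRcKO_Oxarol against WT_Oxarol 1 was called higher, beside 8.71% of all genes. It was Krt17, with means of 438 FPKM in VDRcKO_Oxarol and 174 FPKM in WT_Oxarol, while the other 3 had differences under 0 without a call. Krt6b averaged 21.5 ± 8.17 FPKM in VDRcKO_Oxarol, 55.4 ± 23.2 FPKM in WT_Oxarol, 31.2 ± 15.2 FPKM in WT_PBS and 4.33 ± 0.961 FPKM in WT_untreated. Their part in the stefin values was not tested.

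Beside the Cst6 and protease values of VDRcKO_Oxarol, hair follicle and macrophage markers were also high. Over 19 hair follicle genes with a row the sum was 311 to 1347 FPKM in VDRcKO_Oxarol, 18.7 to 78.8 FPKM in WT_Oxarol, 20.2 to 366.6 FPKM in WT_PBS and 21.6 to 198 FPKM in WT_untreated, and 13 of 18 tested were called higher in VDRcKO_Oxarol than in WT_Oxarol, beside 8.71% of all genes. Over 12 macrophage genes the sum was 1017 to 1272 FPKM in VDRcKO_Oxarol, 608 to 797 FPKM in WT_Oxarol, 564 to 648 FPKM in WT_PBS and 599 to 678 FPKM in WT_untreated, and 7 of 12 were called higher in VDRcKO_Oxarol than in WT_Oxarol, beside 8.71% of all genes. In this comparison 3 of 6 fibroblast, 2 of 4 cartilage, 2 of 4 T cell and 1 of 4 endothelium markers tested were also called higher. All tested genes of these lists differed by more than 0, with medians of 0.69, 0.66, 0.44 and 0.41. So did all tested hair follicle and macrophage genes, with medians of 3.70 and 0.52, against 0.08 over all genes. Langerhans and dendritic markers had 1 of 8 called higher and sebaceous gland markers 1 of 8 lower. Basal keratinocyte, muscle, and mast cell and basophil markers had no call. Suprabasal and granular keratinocyte markers define layers where Cst6 is known to be made, and whether other skin cells made it here was not tested. The sums of these markers were 17150 to 19457 FPKM in VDRcKO_Oxarol, 20312 to 23364 FPKM in WT_Oxarol, 14658 to 25561 FPKM in WT_PBS and 14222 to 21490 FPKM in WT_untreated. In WT_PBS replicate 3, the lowest of its group, Krt2 was listed at 0, and the other 2 WT_PBS libraries lay above all 3 VDRcKO_Oxarol libraries. Of the 8 genes tested, 2 were called higher and 1 lower in VDRcKO_Oxarol against WT_Oxarol, with a median difference of 0.18. Over all genes 8.71% were called higher and 13.1% in either direction. The part of these cells in the Cst6 and protease values was not tested.

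Genes whose levels followed each member most closely over the 12 libraries were taken by Pearson correlation of log2(FPKM + 1), given as a description of libraries that share their groups. Stfa1 was most like BC100530 (0.993) and BC117090 (0.983), which share sequence with it, and then Dcbld1 (0.938). Stfa3 was most like Hif1a (0.95), Lamp2 (0.944) and Ms4a6c (0.94), each highest in VDRcKO_Oxarol and next in WT_Oxarol. Hif1a averaged 34.0 FPKM in VDRcKO_Oxarol, 30.4 FPKM in WT_Oxarol, 21.0 FPKM in WT_PBS and 19.0 FPKM in WT_untreated. Cst6 was most like Ctsl (0.968), Rtn3 (0.967) and the beta-defensin gene Defb6 (0.947). Defb6 averaged 586 FPKM in VDRcKO_Oxarol, 103 FPKM in WT_Oxarol, 129.9 FPKM in WT_PBS and 161 FPKM in WT_untreated, the same order as Cst6. Stfa2 was most like Rps6ka6 (0.955), Cse1l (0.922) and Cdca2 (0.913), Cst3 like Rgnef (0.944), Pfdn5 (0.942) and C230035I16Rik (0.931), and Cstb like Nol12 (0.939), Psph (0.937) and Nol11 (0.93). Among the 6 genes themselves the correlations were 0.846 between Stfa1 and Stfa3, 0.789 between Stfa1 and Stfa2, 0.816 between Stfa2 and Stfa3, 0.419 between Stfa3 and Cst6, and -0.10 between Stfa1 and Cst6.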

How the data were processed

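Ear skin RNA was made into 12 libraries with an NEBNext Ultra kit, per the labels' protocols. TopHat2 2.0.8, Bowtie2 2.1.0, Cufflinks 2.1.1 and the mouse build mm9 are named in the submitters' processing notes, with roles, settings and strandedness not given in the sources used here. The deposited value per gene symbol was taken as FPKM made by the authors. The file headers print no unit, and FPKM was inferred from Cufflinks and the range of values. Read counts were not used here. Library sizes were estimated from the value of 1 fragment in single-transcript genes of at least 2500 bases, and may be off by a factor of 2.

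The log2(FPKM + 1) values entered limma 3.58.1 (R 4.3.3), in 1 fit of 4 group means with an intensity trend and 8 residual degrees of freedom, over the 14059 genes that reached 1 FPKM in 3 or more libraries. All 6 members passed this filter, Stfa2 through 7 libraries. Calls took an adjusted p (Benjamini-Hochberg) under 0.05. The fit was tested on simulated data, with no outcome of that test given here. The 6 genes, the lists and the tests were chosen with earlier results of these data known. Named were the members, Vdr, Cyp24a1, up to 4 called genes of each family, protease and cornification list by smallest adjusted p, and the 3 genes most correlated with each member. Gm5416, Kng2, Lgmn and the marker genes named fall outside that rule and were chosen after their values were seen. Replicate numbers follow the order of deposit and do not pair libraries. No 2 libraries held identical values, and within-group Pearson correlations were 0.931 to 0.966. Sequences were read from RefSeq (GRCm38.p6) and GENCODE tables with Python 3.11.15 and Biopython 1.88, and no coordinates of the deposited build were used.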

Additional observations from a re-analysis of the deposited data

How the results depend on the processing

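The alternatives were a pseudocount of 0.1 FPKM, no filter, a filter of 5 FPKM (which removed Stfa2), quantile normalization, median-of-ratios scaling, only the 2 groups compared, the library code series in the model, the first series only (no VDRcKO_Oxarol value), a robust variance model, the stefin A rows summed, and leaving out each library. The Cst6 call between VDRcKO_Oxarol and WT_Oxarol held under all 21 alternatives run, at 1.10 to 1.33 (adjusted p = 0.00142 to 0.0349), and the Stfa3 call between VDRcKO_Oxarol and WT_PBS under all 20. Stfa1 and Stfa3 passed in WT_Oxarol against WT_PBS under none of 21 (adjusted p from 0.0681 and from 0.0529).

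Of the 6 genes, 1 was called in VDRcKO_Oxarol against WT_Oxarol, and 3 in a fit of these groups alone. Stfa1 and Stfa3 were added there, each called in that 1 of 20 alternatives. In WT_Oxarol against WT_untreated 2 were called, against 0 with only these groups, 1 in the first series, 1 with rows summed, and 1 to 2 on leaving out a library (1 without WT_Oxarol replicate 2). VDRcKO_Oxarol against WT_PBS gave 2, and 1 with rows summed. VDRcKO_Oxarol against WT_untreated gave 4, 2 with rows summed, and 2 to 4 on leaving out a library (2 without VDRcKO_Oxarol replicate 1 or 2). Summing leaves fewer genes to call; the other causes were not tested.

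Differences that reversed had no call, and apart from that of Stfa2, at -0.42, they lay between -0.01 and 0.19. For WT_Oxarol against WT_PBS, Cst3 gave -0.031 (quantile), -0.023 (first series) and -0.077 to 0.11 over libraries left out, and Cstb -0.073 to 0.065. For VDRcKO_Oxarol against WT_Oxarol, Stfa2 gave 0.092 with the series term and -0.84 to 0.048 over libraries left out, Cst3 -7e-04 (quantile), -0.075 (median-of-ratios) and -0.072 to 0.11 over libraries left out, and Cstb -0.021 (median-of-ratios). For Cstb against WT_untreated, WT_Oxarol gave -0.063 in the first series and -0.025 to 0.38 over libraries left out, and WT_PBS -0.014 to 0.39. For VDRcKO_Oxarol against WT_PBS, Cst3 gave -0.032 (quantile), -0.057 (median-of-ratios) and -0.011 to 0.089 over libraries left out, and Cstb -0.062 (quantile), -0.036 (median-of-ratios) and -0.0073 to 0.13. Counts of all genes called, behind the shares given as background, moved by over 1.5 times in each of the 6 comparisons on leaving out 1 library. In VDRcKO_Oxarol against WT_Oxarol 1848 became 283 with the series term, 322 without WT_Oxarol replicate 2 and 3433 without WT_untreated replicate 1. In VDRcKO_Oxarol against WT_PBS 2286 became 611 with the series term, 543 without WT_PBS replicate 1 and 3875 without WT_untreated replicate 1. In VDRcKO_Oxarol against WT_untreated 2668 became 1109 with the series term and 1168 without VDRcKO_Oxarol replicate 2. In WT_Oxarol against WT_untreated 184 became 34 to 254, lowest without WT_Oxarol replicate 2, in WT_Oxarol against WT_PBS 43 became 13 to 132, without WT_Oxarol replicate 3 and 1, and in WT_PBS against WT_untreated 1 became up to 6, without WT_PBS replicate 3. No paired analysis was possible because the labels carry no replicate numbers.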
